A study of Drosophila melanogaster with 6 samples.

Results

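HP2 regions on chromosome 4 were the stretches of this chromosome that the authors called enriched for HP2 over input DNA. All regions whose sequence name was 4 were taken, which gave 132 of the 5179 regions in the list of the replicate set (the combined list). The lists of HP2 replicates 1, 2 and 3 held 136 of 2488, 105 of 3132 and 121 of 3190 regions on this chromosome. Over the 4 lists this made 494 of 13989 regions. The series holds 3 HP2 immunoprecipitation libraries made with the antibody Ab2-90 and 3 input libraries, all from Oregon-R (genotype wild type) embryos, 14 to 16 h old, of population cages, fixed with 1.8% formaldehyde. Whole embryos were used, so each value averages over all their cell types, and region lists hold no marker by which the stage or tissue could be checked. Input libraries enter only through the authors' calls, each replicate being called against the input of its own number, and have no values of their own here. The labels do not tell whether each replicate is its own collection of embryos. SDs here thus measure only the spread between these libraries, part of which may be technical. The exact sign-flip permutation test (two-sided) rests on the same libraries, and 3 differences of the same sign give p = 0.25 whatever their SD.

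HP2, the product of the gene Su(var)2-HP2, is a partner of HP1a, which in turn recognises methylated lysine 9 of histone H3 in fly heterochromatin. Chromosome 4 is the smallest fly chromosome and is known for heterochromatin that is interspersed with expressed genes along the whole arm. Among its genes are ci, a transcription factor of Hedgehog signalling, ey and toy, which act in eye development, and pan, a transcription factor of Wingless signalling. RefSeq lists 114 genes on chromosome 4, of which 80 are protein-coding, but that table follows release 6 of the genome and the regions follow release 5. No region was therefore assigned to a gene, and no sequence is shown, since the release 5 sequence was not used here.

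Chromosome 4 spans 1351.9 kb in release 5, and its coordinates run from the centromere side to the telomere side. HP2 regions covered 498.2 kb of it in replicate 1, 885.4 kb in replicate 2 and 812.2 kb in replicate 3. As a share of the bases this was 36.9%, 65.5% and 60.1%, with a mean of 54.1% ± 15.2 (SD, n = 3). Replicate 1 stood apart: it had more regions than either other replicate, and they covered a smaller part of the chromosome. Depth is unknown for all 3 libraries, and its part in that difference was not tested. The combined list covered 955.7 kb, or 70.7%, more than any single replicate.

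**Figure D1:**
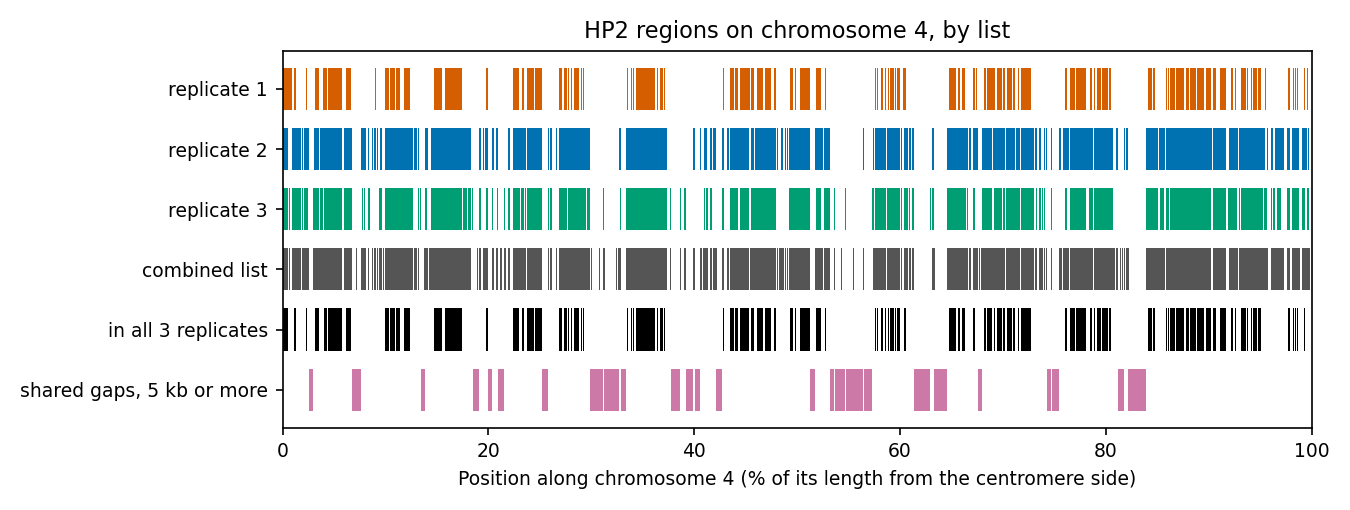
HP2 regions along chromosome 4, with position as percent of its length from the centromere side; rows show the 3 replicate lists, the combined list, stretches covered in all 3 replicate lists and stretches of at least 5 kb covered in none of them. Long blocks alternate with 26 shared gaps, and replicate 1 shows shorter pieces inside the blocks of replicates 2 and 3.

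The regions of replicate 1 lay almost wholly inside those of the other replicates. Of its 136 regions, 127 (93.4%) fell entirely within a single region of replicate 2 and 119 (87.5%) within one of replicate 3. Over all chromosomes these shares were 55.8% and 50.3%. No region of replicate 1 was without a partner in both other lists, whereas 25 regions of replicate 2 (23.8%) and 12 of replicate 3 (9.92%) were found in no other replicate list. Over all chromosomes the shares of such lone regions were 18.4%, 22.1% and 19.2% in replicates 1, 2 and 3. Counted in bases, 96.6% of the HP2 sequence of replicate 1 on chromosome 4 lay in regions of both others. The part found in replicate 1 alone was 8.40 kb in 8 pieces, the longest from 9548 to 12603. Another piece of 1354 bp lay close to it, from 6711 to 8064.

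Across the chromosome, 35.6% of the bases lay in regions of all 3 replicates, 22.6% in regions of 2, 10.5% in regions of 1 and 31.3% in none. Most of the sequence shared by 2 lists was shared by replicates 2 and 3: 22.0% of the chromosome lay in both of these lists and outside replicate 1. Without replicate 1, the part in both remaining lists was 57.5%, so the amount of common HP2 sequence rests on that library. The part in no list was 32.0% without replicate 1, 38.9% without replicate 2 and 33.7% without replicate 3. Neither share can fall when a list is left out, and little sequence lay in replicate 1 alone. The overlap divided by the union, in bases, reached 84.6% between replicates 2 and 3. With replicate 1 it was 58.5% for replicate 3 and 54.3% for replicate 2.

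Regions were a mixture of many short ones and a small number of long ones that held most of the bases. Median lengths on chromosome 4 were 2396, 3103 and 3094 bp in replicates 1, 2 and 3, averaging 2864 bp ± 406 (SD, n = 3). Regions over 10 kb numbered 6 of 136 (4.41%) in replicate 1, 27 of 105 (25.7%) in replicate 2 and 29 of 121 (24.0%) in replicate 3. Among all regions of the series, 2.53%, 8.11% and 6.90% of the same 3 lists exceeded 10 kb. In the combined list 29 of 132 regions (22.0%) did so, against 5.83% over the series. Chromosome 4 makes up 0.968% of the sequence considered. In that list it held 5.45% of the covered bases and 9.60% of the regions over 10 kb. For comparison, runs of covered bases on the scaffold 3LHet had medians of 2023, 4062 and 3436.5 bp in replicates 1, 2 and 3. On 3RHet they were 1791, 2670 and 2126.5 bp, and in the proximal 2 Mb of 2L and 3L 2181, 4671 and 3528 bp. Thus 3LHet and the proximal window exceeded chromosome 4 in replicates 2 and 3, but not in replicate 1. In the combined list the medians were 4183, 2675 and 3244 bp, against 2044 bp on chromosome 4. Long regions carried 73.2% of the HP2 bases of chromosome 4 in replicate 2 and 65.9% in replicate 3, but 14.1% in replicate 1.

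The longest combined region on the chromosome ran from 1160338 to 1220076, over 59.7 kb, and was the sixth longest of the whole combined list. Replicate 1 split it into 14 regions that covered 75.8% of it. In replicate 2 it was 2 regions covering 99.5%, and in replicate 3 it was 3 regions covering 97.3%. Next in length came 193028 to 247502 (54.5 kb), 451536 to 505560 (54.03 kb), 134014 to 171000 (36.99 kb) and 362976 to 399668 (36.7 kb). All 5 were present in every replicate list, with 58.1% to 75.8% of their bases covered in replicate 1, 97.0% to 99.99% in replicate 2 and 91.6% to 99.3% in replicate 3. The longest region of replicate 2 was 451513 to 505552 (54.04 kb) and that of replicate 3 was 1166080 to 1208716 (42.6 kb). Replicate 2 next had 194630 to 247486 (52.9 kb), 1160472 to 1208801 (48.3 kb), 134030 to 170999 (36.97 kb) and 362996 to 399733 (36.7 kb). Replicate 3 next had 194789 to 236357 (41.6 kb), 134099 to 168452 (34.4 kb), 463064 to 494575 (31.5 kb) and 1065332 to 1090189 (24.9 kb), and 4 of its 5 longest overlapped one of the 5 longest of replicate 2. In replicate 1 the longest was 59898 to 78045, at 18.1 kb, followed by 924708 to 935822 at 11.1 kb and by 3 regions of 10.2 to 10.3 kb, which recur among the stretches common to all lists. The stretch from 59898 to 78045 lay within 1 region in each of the other lists and was also the longest covered in all 3 replicates.

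Stretches covered in all 3 replicate lists numbered 143, with a median of 2200 bp, and 27 of them reached 5 kb. After the first, at 59898 to 78045, the longest were 682600 to 692914 (10.3 kb), 225684 to 235937 (10.3 kb), 475418 to 485569 (10.2 kb) and 973247 to 983347 (10.1 kb). All 5 of these lay within single regions of the combined list.

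Replicates 1 and 3 both covered the ends of long replicate 2 regions less than their interior. These ends are where the replicate 2 calls stop, and most replicate 1 regions lie inside replicate 2 regions. A fall at the ends therefore follows in part from the choice of list. The 27 replicate 2 regions over 10 kb were covered by replicate 1 over 37.9% on average in the outermost 5% at each end, and over 66.6% in the central 20%. Replicate 3 covered the same regions over 79.3% at the ends and 97.2% in the central 20%. Over the 254 long regions of all chromosomes, these 27 included, replicate 1 covered 32.4% at the ends and 63.9% in the central 20%. All 27 were found in replicate 1, each of them as several pieces, with a mean of 4.22 pieces per region. Replicate 3 held 16 of the 27 as several pieces, with a mean of 1.89 pieces per region. None of the 29 long regions of replicate 3 was in several pieces in replicate 2, and 28 of them were in replicate 1. Replicate 2 covered these 29 regions over 96.6% at the ends and 100% in the central 20%.

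**Figure D2:**
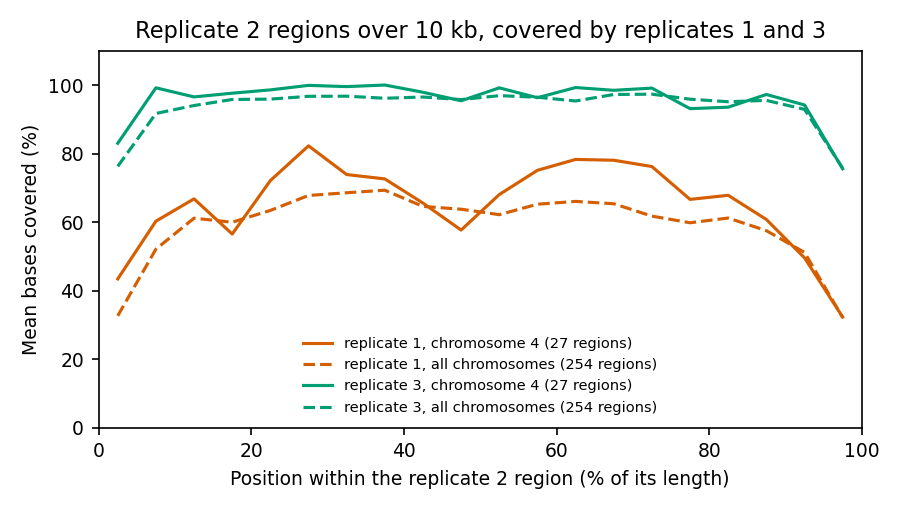
Mean percent of bases covered by replicate 1 (orange) and replicate 3 (green) along the replicate 2 regions over 10 kb, each region scaled to its own length; solid lines are the 27 regions on chromosome 4, dashed lines the 254 regions of all chromosomes. Coverage falls at both ends, which are set by the replicate 2 calls, and replicate 1 lies below replicate 3 throughout.

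Regions without a partner in replicate 1 were mostly short and of low score. A partner is an overlap of at least 1 bp, which a long region meets more easily, and score went with length on this chromosome. Part of this contrast therefore follows from the rule. The authors gave each region a score whose scale is not stated, so score values are compared within a list, and between lists only by rank. In replicate 2, the 48 regions found in replicate 1 had a median length of 11848 bp and a median score of 1.18. The 57 not found there (54.3%, against 57.6% over all chromosomes) had medians of 1873 bp and 0.54. In replicate 3 the 66 regions found in replicate 1 had medians of 7201 bp and 1.22, and the other 55 (45.5%, against 57.8% over all chromosomes) had 1802 bp and 0.57, although the highest score of that list, 2.44 at 812693 to 814142, was among them. Of the combined regions, 29 (22.0%) were present in replicates 2 and 3 and absent from replicate 1, against 18.9% over the series. The longest of these, from 1304074 to 1314884 (10.8 kb, score 1.04), was the only combined region over 10 kb on the chromosome that replicate 1 lacked.

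Of the 132 combined regions, 43 (32.6%, 95% Wilson interval 25.2% to 41.0% for counting error over regions) were found in all 3 replicate lists by an overlap of at least 1 bp. Over the whole series 21.0% were. Another 32 were found in 2 lists, 33 in 1 list and 24 (18.2%) in none, against 33.5% in none over the series. The 43 common regions had a median length of 14407 bp and held 81.2% of the bases of the combined list on chromosome 4. A rule of 1 bp is met more easily by a long region. The Wilson interval takes regions as independent, which neighbouring regions are not, and leaves out the spread between libraries. With replicate 1 left out, the share held by replicates 2 and 3 was 54.5%, above that interval. Such a share cannot fall when a list is dropped. Under a rule of 50% overlap both ways, 6.06% were found in all 3. The 24 regions in no list were short, from 1003 to 1921 bp.

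Score and length went together on this chromosome. Spearman's rho between them across regions was 0.72, 0.79 and 0.73 in replicates 1, 2 and 3 and 0.73 over the 132 combined regions. Over all chromosomes it was 0.39, 0.56, 0.53 and 0.32 in the same 4 lists. These are descriptions over regions that share a library and a caller, and neighbouring regions are not independent. In the combined list the 29 regions over 10 kb had a median score of 1.27, and the 64 under 2 kb had 0.42. Scores showed little relation to position along the chromosome, with rho from -0.04 to 0.20 in the 4 lists.

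**Figure D3:**
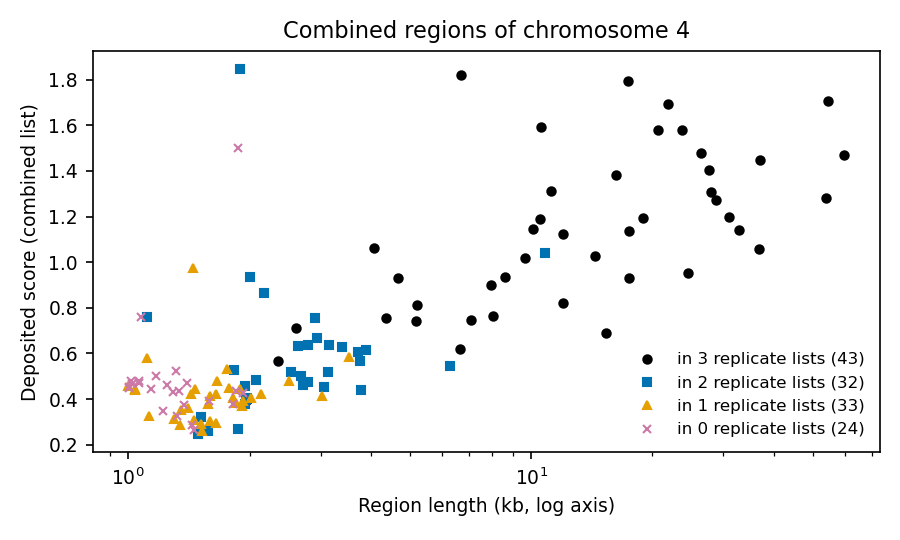
Deposited score against length (kb, log axis) for the 132 combined regions of chromosome 4, with symbols for the number of replicate lists that hold each region. The 43 regions in all 3 lists fill the long, high-scoring part, and 2 regions of about 1.9 kb stand above 1.5.

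The region with the highest combined score was short, from 8062 to 9950 (score 1.85). It lay in replicate 1 (100% of its bases) and replicate 3 (78.5%) and was missing from replicate 2. Its neighbour from 12 to 6716, at the centromere-side end of the sequence, was next with 1.82 and was found in all 3 replicates, over 91.0%, 99.9% and 99.4% of its length. Then followed 969612 to 987028 (1.79), 193028 to 247502 (1.70), 1034166 to 1056032 (1.69), 81176 to 91730 (1.59), 54868 to 78590 (1.58) and 320646 to 341262 (1.58), each held by all 3 replicates. Ninth was 613520 to 615386 (1.50), a region of 1867 bp with 0% of its bases covered in any replicate. The next was 1065278 to 1091614 (1.48), again in all 3. Apart from 613520 to 615386, the regions in no replicate list with the highest scores were 96896 to 97970 (0.76) and 416134 to 417448 (0.52).

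The leading scores differed between the lists. In replicate 1 the highest was at 149494 to 153784 (2.27), inside the combined region from 134014 to 171000. In replicate 2 it was at 15 to 6710 (1.93). In replicate 3 it was at 812693 to 814142 (2.44), a region of 1450 bp covered over 51.8% in replicate 2 and 0% in replicate 1. Among all regions of their own lists these 3 ranked 5, 82 and 39 by score. Scores of overlapping regions on chromosome 4 between replicates 2 and 3 had a Spearman's rho of 0.91 over 79 pairs. With replicate 1, rho was 0.51 for replicate 3 (134 pairs) and 0.37 for replicate 2 (135 pairs). Several regions of replicate 1 shared a partner, as its 135 paired regions met 45 regions of replicate 2.

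Joining combined regions less than 2 kb apart gave 54 domains with a median of 7315 bp. Of these, 8 were at least 50 kb long, and they spanned 43.03% of the chromosome. The longest ran from 584078 to 693170 (109.1 kb) and was made of 14 combined regions, with coverage of 54.5% in replicate 1, 85.2% in replicate 2 and 75.1% in replicate 3. Its combined regions between 649520 and 664534 were each found in replicate 2 alone or in no replicate list. They lay in a gap of 18370 bp in replicate 1 and of 18008 bp in replicate 3, so this domain is joined there without these replicates. The second, from 1134304 to 1220076 (85.8 kb), was made of 2 regions and was covered over 60.9%, 96.6% and 92.4% in the 3 replicates. The domain from 915406 to 991000 followed with 75.6 kb, then 1222118 to 1294388 with 72.3 kb and 1025782 to 1096884 with 71.1 kb. Those from 185536 to 247502 (61.97 kb), 451536 to 505560 (54.03 kb) and 127354 to 179260 (51.9 kb) completed the 8. All 8 held regions of every replicate, from 4 to 17 regions of replicate 1, 1 to 9 of replicate 2 and 3 to 11 of replicate 3. This does not hold for each combined region within them, some of which were found in no replicate list. These values depend on the joining distance. With 1 kb, 5 domains reached 50 kb and spanned 23.0% of the chromosome, the longest having 71.6 kb. With 5 kb, 10 did and spanned 69.3%, the longest having 214.7 kb.

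Stretches covered in none of the 3 replicate lists numbered 111 and added up to 423.6 kb. Their median was 1862 bp, and 26 were at least 5 kb and held 65.2% of that sequence. The longest ran from 1110048 to 1134182 (24.1 kb), directly on the centromere side of the 85.8 kb domain. The next ran from 740533 to 762510 (21.98 kb) and from 829702 to 849949 (20.2 kb). Then came 422366 to 441458 (19.1 kb), 855923 to 873048 (17.1 kb), 403903 to 420649 (16.7 kb), 726184 to 739168 (12.99 kb) and 91741 to 103055 (11.3 kb).

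Several of these gaps were parts of larger gaps in single lists, broken by 1 short region of another list. The gaps of rank 7 and 2 lay on both sides of a replicate 3 region from 739169 to 740532 and together fell in a gap of 43.7 kb in replicate 2 (718789 to 762510) and of 64.4 kb in replicate 1 (713806 to 778219). Those of rank 6 and 4 were parted by a replicate 3 region from 420650 to 422365 and fell in a replicate 2 gap of 37.6 kb from 403903 to 441458. The longest gap of replicate 1 ran from 502956 to 578118 (75.2 kb), where replicates 2 and 3 were covered over 22.1% and 22.3%. The longest of replicate 3 ran from 1090190 to 1134182 (44.0 kb), where replicate 1 had 0% and replicate 2 had 14.0% of its bases covered.

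The combined list placed regions in 12.2% of the sequence that no replicate list covered. Of the 8 longest shared gaps, 829702 to 849949 was free of combined regions, and the other 7 each held 1 or 2 whole combined regions with a first score between 0.37 and 0.76. With combined regions also required to be absent, 23 gaps of at least 5 kb were left. At the telomere side the last covered base was 1347350, 1348619 and 1348259 in replicates 1, 2 and 3. The final 3238 to 4507 bp of the sequence were thus uncovered, whereas the first region of each list began within 270 bp of the centromere-side end.

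Coverage changed sharply over short distances. In bins of 50 kb it ranged from 0% to 72.9% in replicate 1, from 14.9% to 97.0% in replicate 2 and from 13.7% to 95.8% in replicate 3 over 27 full bins. The sharpest contrast lay between 400001 and 550000. The bin from 450001 to 500000 had 72.9%, 97.0% and 95.8% of its bases in regions in replicates 1, 2 and 3, on average 88.6% ± 13.6 (SD, n = 3). The bin before it had 0%, 14.9% and 13.7% (9.54% ± 8.28), and the bin after it had 2.98%, 16.6% and 21.3% (13.6% ± 9.52). Its lowest replicate thus lay above the highest replicate of both neighbours. A further low bin was 250001 to 300000, at 18.4% ± 13.1, next to 200001 to 250000 at 82.8% ± 18.5 (SD, n = 3 each).

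**Figure D4:**
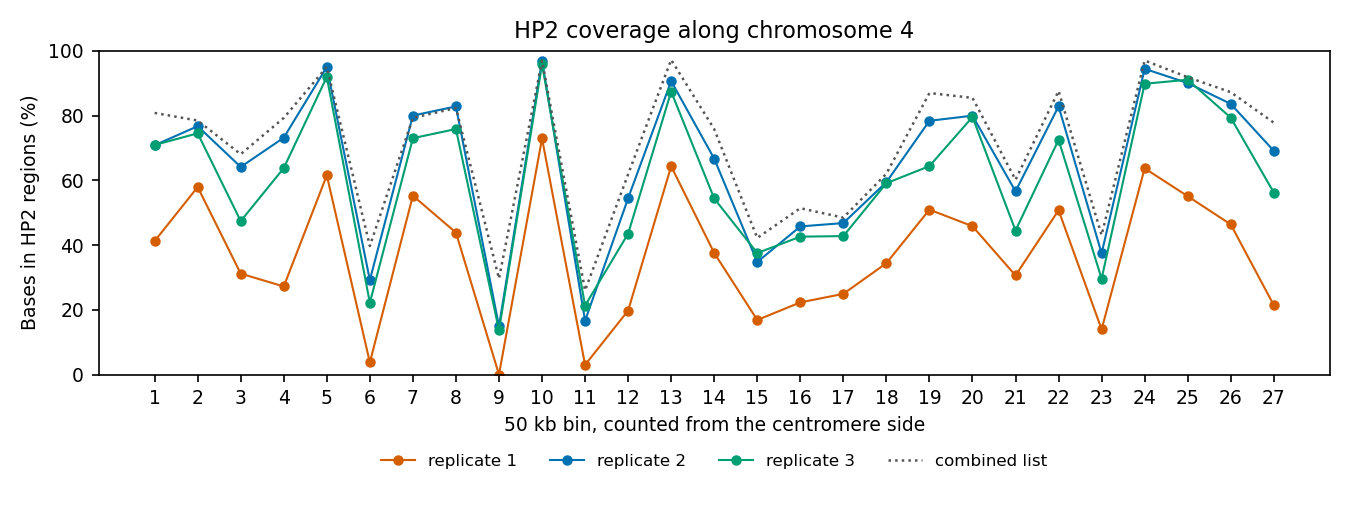
Percent of bases in HP2 regions in the 27 full bins of 50 kb along chromosome 4, counted from the centromere side; points are the 3 replicates and the dotted line the combined list. Bin 10 (450001 to 500000) reaches 72.9% to 97.0% between 2 bins at or below 21.3%.

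The replicates followed the same course. Neighbouring bins differed by a median of 20.4, 22.6 and 25.1 percentage points in replicates 1, 2 and 3, and the direction of the step was the same in all 3 for 22 of 26 steps. Across bins, Pearson's r between replicates 2 and 3 was 0.97 and Spearman's rho 0.98. Replicate 1 had an r of 0.94 with replicate 2 and 0.95 with replicate 3, and a rho of 0.94 with each. These are descriptions over 27 bins of 1 chromosome, which share its sequence. In 9 bins all 3 replicates were covered over at least 50%, and in 7 bins all 3 lay below 50%.

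Between larger parts of the chromosome the differences were smaller. Cut into 2 equal parts of 675.9 kb, the chromosome was covered over 53.6% ± 15.0 on the centromere side and 54.7% ± 15.4 on the telomere side (SD, n = 3 each). The difference, centromere side minus telomere side, was -0.70, -1.23 and -1.62 percentage points in replicates 1, 2 and 3, on average -1.18 ± 0.46 (SD, n = 3). The exact sign-flip permutation test (two-sided) gave p = 0.25, the smallest that 3 replicates allow. In 3 equal parts of 450.6 kb, coverage was 53.3% ± 15.5 on the centromere side, 47.9% ± 13.2 in the middle and 61.2% ± 17.0 on the telomere side (SD, n = 3 each). This order held in each replicate. The telomere-side part exceeded the middle part by 9.17, 17.4 and 13.3 points and the centromere-side part by 6.30, 9.29 and 8.05 points (exact sign-flip permutation test, two-sided, p = 0.25 each).

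Shared gaps are the sequence outside all replicate regions, so their division largely follows from the coverage of the 3 parts and is not a separate result. Of the 26 gaps of at least 5 kb, 10 were centred in the centromere-side part, 11 in the middle and 5 in the telomere-side part, with 93.1, 130.4 and 52.7 kb. The sequence in no replicate list made up 31.6%, 39.3% and 23.1% of these 3 parts.

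Chromosome 4 was set beside 3 other parts of the series: the scaffolds 3LHet and 3RHet and the proximal 2 Mb of 2L and 3L. That proximal window was set by distance alone and may include euchromatin. The mean coverage of chromosome 4 was close to that of the mapped scaffold 3LHet. Chromosome 4 lay above 3RHet and the 2 Mb window in each replicate, the latter depending on the limit of the window. The mean was 54.1% ± 15.2 on chromosome 4, 52.4% ± 18.4 on 3LHet, 33.9% ± 13.7 on 3RHet and 41.02% ± 11.5 in the 2 Mb nearest the centromere on 2L and 3L (SD, n = 3 each). Chromosome 4 minus 3LHet was 5.46, -0.11 and 0.00037 points in replicates 1, 2 and 3, on average 1.78 ± 3.18 (exact sign-flip permutation test, two-sided, p = 0.75). Without replicate 1 that mean was -0.056. Chromosome 4 exceeded 3RHet by 18.04, 19.96 and 22.8 points and the proximal arms by 9.01, 16.8 and 13.6 points, each with p = 0.25 by the exact sign-flip permutation test (two-sided). In the combined list the difference from 3RHet was 10.9 points, against a mean of 20.3 over the replicates. The difference from the proximal arms averaged 13.1 points and depends on the 2 Mb limit: chromosome 4 minus the proximal arms was -5.07 points with 1 Mb and 25.9 points with 3 Mb.

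**Figure D5:**
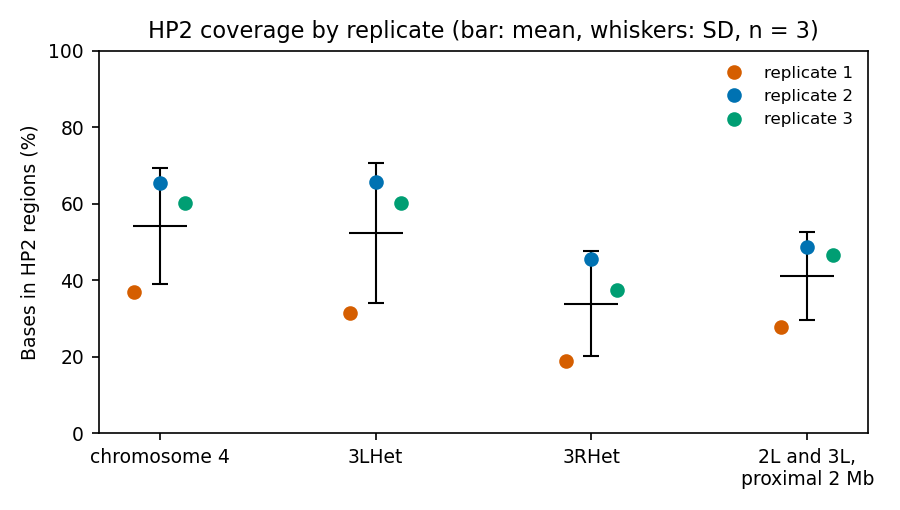
Percent of bases in HP2 regions on chromosome 4, on the scaffolds 3LHet and 3RHet and in the proximal 2 Mb of 2L and 3L; points are replicates, horizontal bars means and whiskers SD (n = 3). Chromosome 4 and 3LHet have nearly the same values in replicates 2 and 3.

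Gaps and agreement in these parts are given side by side, with no test. A gap here is any sequence outside regions, including any unknown bases or repeats where reads cannot be placed. Such sequence was not set apart, so a gap need not mean absence of HP2. The longest gaps on chromosome 4 were 75.2, 43.7 and 44.0 kb in replicates 1, 2 and 3, and those of 3LHet were 78.1, 90.8 and 48.6 kb. On 3RHet they were 90.5, 95.7 and 96.9 kb, and on the proximal arms 358.5, 190.3 and 151.6 kb. Gaps of at least 5 kb numbered 20.7, 17.01 and 22.9 per Mb on chromosome 4, 39.9, 19.6 and 23.1 per Mb on 3LHet, 34.2, 30.2 and 36.9 per Mb on 3RHet, and 25.5, 15.3 and 17.3 per Mb on the proximal arms. In the combined list they numbered 18.5 per Mb on chromosome 4, 12.5 on 3LHet, 16.7 on 3RHet and 14.5 on the proximal arms. Per Mb, chromosome 4 thus had fewer such gaps than 3LHet and 3RHet in each replicate list and more than all 3 parts in the combined list. The share of bases in regions of all 3 replicates was 35.6% on chromosome 4, 26.2% on 3LHet, 13.4% on 3RHet and 24.6% on the proximal arms. Replicate 1 bases lay in both other lists in 96.6% of cases on chromosome 4, 83.4% on 3LHet, 71.1% on 3RHet and 88.5% on the proximal arms.

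The combined list followed replicate 2 most closely on chromosome 4. Region starts of replicate 2 lay a median of 49 bp from the nearest combined start, and 66.7% were within 100 bp. For replicate 3 the median was 393 bp and 27.3% were within 100 bp, and for replicate 1 it was 5424 bp and 0.735%. Over all chromosomes 54.2%, 28.0% and 8.24% of the starts of replicates 2, 3 and 1 lay within 100 bp of a combined start, in the same order.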

How the data were processed

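HP2 ChIP-seq regions of 3 immunoprecipitation libraries and of the replicate set were used. Per the submitters' processing notes Bowtie 0.12.7 was used, and coordinates are FlyBase release 5, per the file headers; for the caller, its threshold and the combining of replicates, nothing is stated in the labels or headers. The authors deposited a score per region, whose scale is not stated per the file headers, so score values were compared within a list, and between lists only by rank correlation. Starts and ends, the other deposited values, are 1-based, and ends past the chromosome length were set to it. Coverage is the share of a sequence's bases that lie in regions, with all bases of the sequence counted whether or not reads can be placed there. Shared gaps lie in no replicate list. Differences were tested within replicates by exact sign-flip permutation tests (two-sided). The 10 highest-scoring and 5 longest combined regions, the 5 longest common stretches, the 8 longest shared gaps, the longest regions of each replicate and the 3 highest-scoring combined regions in no replicate list are named by rule; other named regions were chosen after their values were seen. The members, tests and lists were chosen with earlier results of these data known. Interval code was tested on simulated data. Read totals are unknown, so no counting precision is given for single regions. Python 3.11.15, numpy 2.4.6, scipy 1.17.1 and matplotlib 3.10.9 were used.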

Additional observations from a re-analysis of the deposited data

How the results depend on the processing

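No paired analysis was possible between immunoprecipitation and input libraries because the input libraries have no values of their own here; differences between parts of the genome were taken within each replicate. Of 66 alternatives, 42 stayed within the limits set for their result, 21 moved and 3 reversed a difference. A difference stayed if its sign held, and a mean if it moved by less than its SD. Counts stayed within a set factor, and shares within their Wilson interval. For shares of bases that interval takes bases as independent and is very narrow, so all alternatives for these shares moved. For the share of combined regions it takes neighbouring regions as independent, which they are not. The tally depends on these unlike rules. The joining distance of domains was chosen after seeing the data. Coverage of chromosome 4 was 70.7% in the combined list, and ranged from 48.5% to 62.8% without a replicate. Its median region length was 7312 bp for regions at or above the median score of their list, 4082 bp with regions under 1 kb apart merged and 2044 bp in the combined list, and 2745 to 3099 bp without a replicate. The difference from 3LHet was -2.16 points in the combined list, 0.57 for regions at or above the median score and lay between -0.056 (without replicate 1) and 2.73 without a replicate. That from 3RHet was 10.9 in the combined list. With a proximal limit of 1 Mb the difference from the proximal arms was -5.07, and with 3 Mb 25.9. Centromere side minus telomere side was -2.88 for the higher-scoring regions and -0.039 in the combined list. Bases in all 3 lists came to 24.6% for these higher-scoring regions, 37.3% after merging, and 35.8% to 57.5% in both remaining lists without a replicate. Bases in no list came to 42.01%, 30.6%, and 32.0% to 38.9%. Shared gaps numbered 53 from 2 kb and 11 from 10 kb, and 22 to 31 without a replicate. Combined regions in all 3 lists came to 6.06% with 50% overlap both ways and 54.1% for these higher-scoring regions, and 33.3% to 54.5% without a replicate. With a joining distance of 1 kb 5 domains reached 50 kb. Except for fewer libraries or regions by construction, the cause was not tested. Without read totals, absence from a list and low depth cannot be told apart.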
